A study of Homo sapiens with 6 samples.

Results

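Cell cycle genes were followed in the B-lymphoblastoid cell line GM12873, an established line of B-lymphocytes grown in suspension, in 3 control and 3 lyophilized samples. The set holds 51 genes, chosen by name: 26 genes of DNA replication and S phase, from MCM2 to NPAT, and 25 genes of G2 phase and mitosis, from CCNA2 to CCNF. All 51 were found among the 23284 gene symbols of the tables and all 51 passed the filter on low values, which kept 11134 genes with a mean above 1 FPKM in at least 1 group (FPKM, fragments normalised to transcript length and to the number of mapped reads, is a level per length). The samples shared the line, the growth medium and the number of washed cells taken. Control cells went straight into the RNA extraction reagent, whereas lyophilized cells were freeze-dried in 0.1 M trehalose, kept dry for 2 weeks at room temperature and only then extracted. Poly(A)-selected RNA-Seq libraries were made from 1 µg of total RNA and read as single 75 bp ends. The labels pair each control with the lyophilized sample of the same number. A pair is called a culture here, although the labels do not say whether the numbers mark separate cultures, and all 6 samples come from 1 cell line.

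The comparisons asked whether cell cycle gene expression differed between the treatments, and whether it differed between the 3 numbered cultures. In dividing cells, E2F transcription factors switch on a wave of genes for replication at the passage from G1 into S phase, and a later wave, read from promoters with a CHR element and CCAAT boxes by complexes that hold B-MYB and FOXM1, supplies the machinery of mitosis. Both waves run at once in an unsynchronised culture, so that the level of their transcripts follows how many cells are cycling. B cells immortalised by Epstein-Barr virus divide continuously in culture. In bulk RNA, fewer cells in S phase or mitosis and less RNA of these genes per cell cannot be told apart.

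The promoters of the members carry the sequence words of these waves. Stretches of 100 bases before the transcription start are shown for the 3 S-phase members with an E2F word there and the 3 G2/M members with a CHR word there that differed most between cultures 1 and 2. CDT1, the member that was not lowest in culture 1, is shown as well. Sequences are from RefSeq (GRCh38.p14), 5′ to 3′ on the gene's strand, and capitals mark the words searched on both strands: E2F (the words TTCCCGC or else TTGGCGC or else TTCGCGC or else TTGCCGC), CHR (TTTGAA or TTCGAA) and CCAAT.
UHRF1 (chr19:4909401-4909500, plus strand): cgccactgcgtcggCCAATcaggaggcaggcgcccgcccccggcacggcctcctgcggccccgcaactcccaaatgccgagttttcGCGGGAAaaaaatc
PCNA (chr20:5126623-5126722, minus strand): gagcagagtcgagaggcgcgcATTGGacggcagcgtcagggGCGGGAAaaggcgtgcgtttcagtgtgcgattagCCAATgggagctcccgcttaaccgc
MCM3 (chr6:52284743-52284842, minus strand): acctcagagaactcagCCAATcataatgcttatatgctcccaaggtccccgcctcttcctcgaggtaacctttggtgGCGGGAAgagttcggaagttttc
KIF11 (chr10:92593030-92593129, plus strand): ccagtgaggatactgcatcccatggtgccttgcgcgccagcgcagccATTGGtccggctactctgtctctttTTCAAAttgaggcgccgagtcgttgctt
HMMR (chr5:163460532-163460631, plus strand): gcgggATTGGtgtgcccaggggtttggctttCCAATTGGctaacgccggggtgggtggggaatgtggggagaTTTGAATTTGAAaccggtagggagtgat
MKI67 (chr10:128126424-128126523, minus strand): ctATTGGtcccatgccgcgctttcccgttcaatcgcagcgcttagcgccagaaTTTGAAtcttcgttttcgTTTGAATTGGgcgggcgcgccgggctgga
CDT1 (chr16:88803689-88803788, plus strand): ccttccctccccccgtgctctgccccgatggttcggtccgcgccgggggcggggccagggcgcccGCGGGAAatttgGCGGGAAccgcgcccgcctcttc
UHRF1, PCNA and MCM3 each held 1 E2F word in this stretch, CDT1 held 2 and no CCAAT word, and HMMR and MKI67 each held 2 CHR words. Neighbouring words can share bases, as CHR and CCAAT do in MKI67. Of the 51 members, 43 matched the table, with 55 windows running from 250 bases before to 50 bases after a start, and windows of 1 gene can overlap. An E2F word stood in 73.3% of the 30 S-phase windows, 24% of the 25 G2/M windows and 12.97% of all 35116 promoter windows. A CHR word stood in 6.67% of the S-phase windows, 68% of the G2/M windows and 16.4% of all windows. CHR and CCAAT occurred together in 64% of the G2/M windows, against 6.67% of the S-phase windows and 6.38% of all windows. CCAAT alone was less selective, at 63.3%, 84% and 34.6%. These words describe the windows and show no binding.

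The cell type label was checked first. All 10 B-cell markers had a mean above 1 FPKM, while 0 of 6 T-cell markers and 0 of 7 myeloid and erythroid markers did, and CD3G and HBB were listed at 0 in every sample. The summed FPKM of the T-cell list stayed between 0.272 and 0.379 in the controls and between 0.165 and 0.337 in the lyophilized samples, and that of the myeloid and erythroid list between 0.281 and 0.653 and between 0.573 and 0.971. The B-cell list summed to 2342 and 2260 FPKM in pair 1 (control, then lyophilized), 1612 and 1586 in pair 2 and 1701 and 1635 in pair 3, so it was highest in culture 1 in both groups. Summed over its records, a sample held 468790 to 524744 FPKM. Counting intervals were not computed, because FPKM does not give the reads behind a value. Raw read totals listed with the study were lowest for the control of culture 1 and highest for its lyophilized partner. The part of read totals in the culture and treatment differences was not tested.

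The cell cycle members separated the samples by culture. The median level of the S-phase members was 25.2 and 27.9 FPKM in culture 1 (throughout, the control is given before its lyophilized partner), 36.6 and 34.2 in culture 2 and 37.9 and 35.6 in culture 3. The median level of the G2/M members was 23.9 and 29.2 FPKM in culture 1, 42.9 and 44.3 in culture 2 and 34.4 and 41.7 in culture 3. Culture 1 was thus the lowest in each list and each group, while the median over all genes tested was 9.48 and 9.77 FPKM in culture 1, 10.7 and 10.4 in culture 2 and 10.5 and 10.7 in culture 3. The 26 S-phase members together made up 0.187% and 0.186% of the FPKM sum (small RNAs left out) in culture 1, 0.348% and 0.323% in culture 2 and 0.304% and 0.295% in culture 3. The corresponding shares of the 25 G2/M members were 0.144% and 0.164%, 0.264% and 0.257%, and 0.218% and 0.234%.

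**Figure D1:**
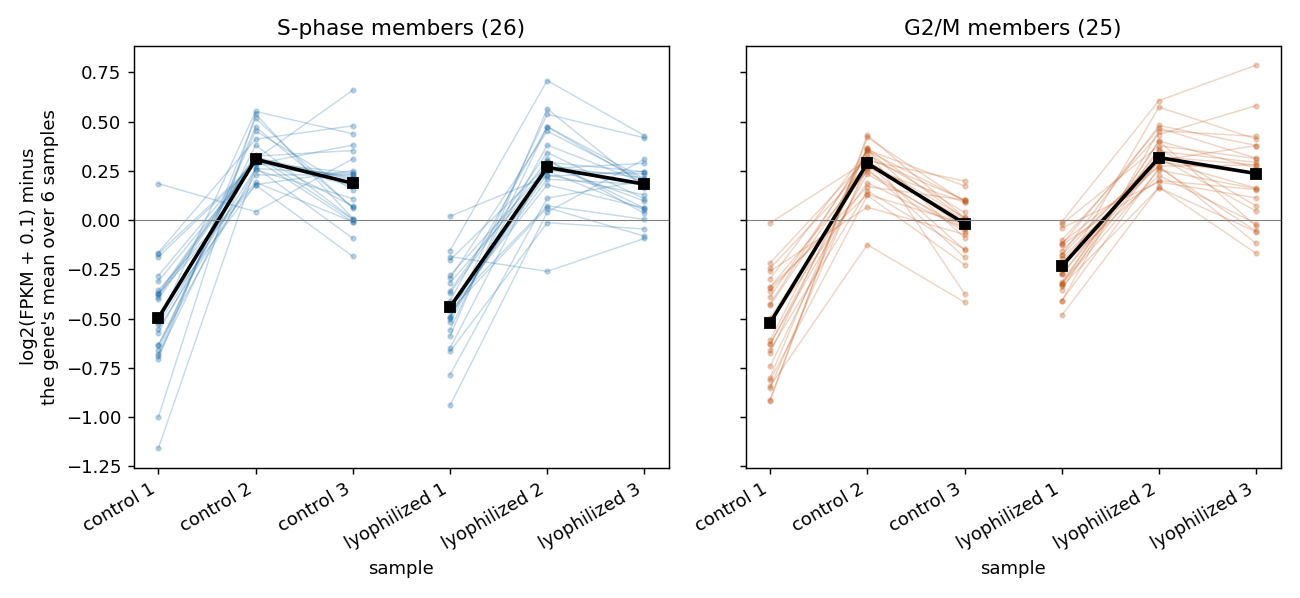
Level of each member in each sample, as log2(FPKM + 0.1) minus the gene's mean over the 6 samples, for the 26 S-phase members (left) and the 25 G2/M members (right); thin lines are genes, lines join the samples of 1 group, and black squares are medians over the members. In each group the culture 1 sample is the lowest for 50 of the 51 members.

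For 50 of the 51 members, the culture 1 sample was the lowest of its group both among the controls and among the lyophilized samples, against 42.9% of all genes tested, and the exception was CDT1. The culture 2 sample was the highest in both groups for 37 members, against 25.2% of all genes. With the treatment as a term in the fit, the limma F-test called 48 of the 51 members different between cultures (24 of 26 in S phase and 24 of 25 in G2/M) at an adjusted p below 0.05, against 45.2% of all genes tested. The members it did not call were CDT1, NPAT and CDC25C. Culture 1 was lower than culture 2 in 49 members (29.5% of all genes were) and lower than culture 3 in 46 (22.9% of all genes), and no member was called higher in culture 1, although 16.3% of all genes were called higher there than in culture 2. The median log2 difference of culture 1 minus culture 2 was -0.74 over the S-phase members and -0.69 over the G2/M members, beside -0.11 over all genes. For culture 1 minus culture 3 the medians were -0.63, -0.44 and -0.12. Folds between cultures are antilogs of differences in log2(FPKM + 0.1), and for genes with low levels they are too small. Each culture has 1 control and 1 lyophilized sample, so the error is the spread left within pairs, and the p-values do not measure how far repeated cultures would vary. Without the treatment term, the treatment difference adds to the error. In that fit 27 members were called by the F-test, 34 between cultures 1 and 2 and 11 between cultures 1 and 3. The shares of all genes called in it are not reported here.

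Cultures 2 and 3 lay closer together. Culture 2 was higher than culture 3 in 11 members (4.29% of all genes), 6 in S phase and 5 in G2/M, with medians of 0.11 and 0.22 beside 0.00 over all genes. The G2/M median was 0.11 without control 2 and 0.32 without lyophilized sample 2. This count depended on the processing and on single samples, since it was 0 without the filter on low values or without the variance trend, 2 without control 3, 1 without lyophilized sample 3 and 25 without lyophilized sample 2. The 5 G2/M members were CDC20, UBE2C, CCNB1, AURKA and AURKB, and the 6 S-phase members were PCNA, FEN1, MCM7, CDC6, RRM1 and TYMS.

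**Figure D2:**
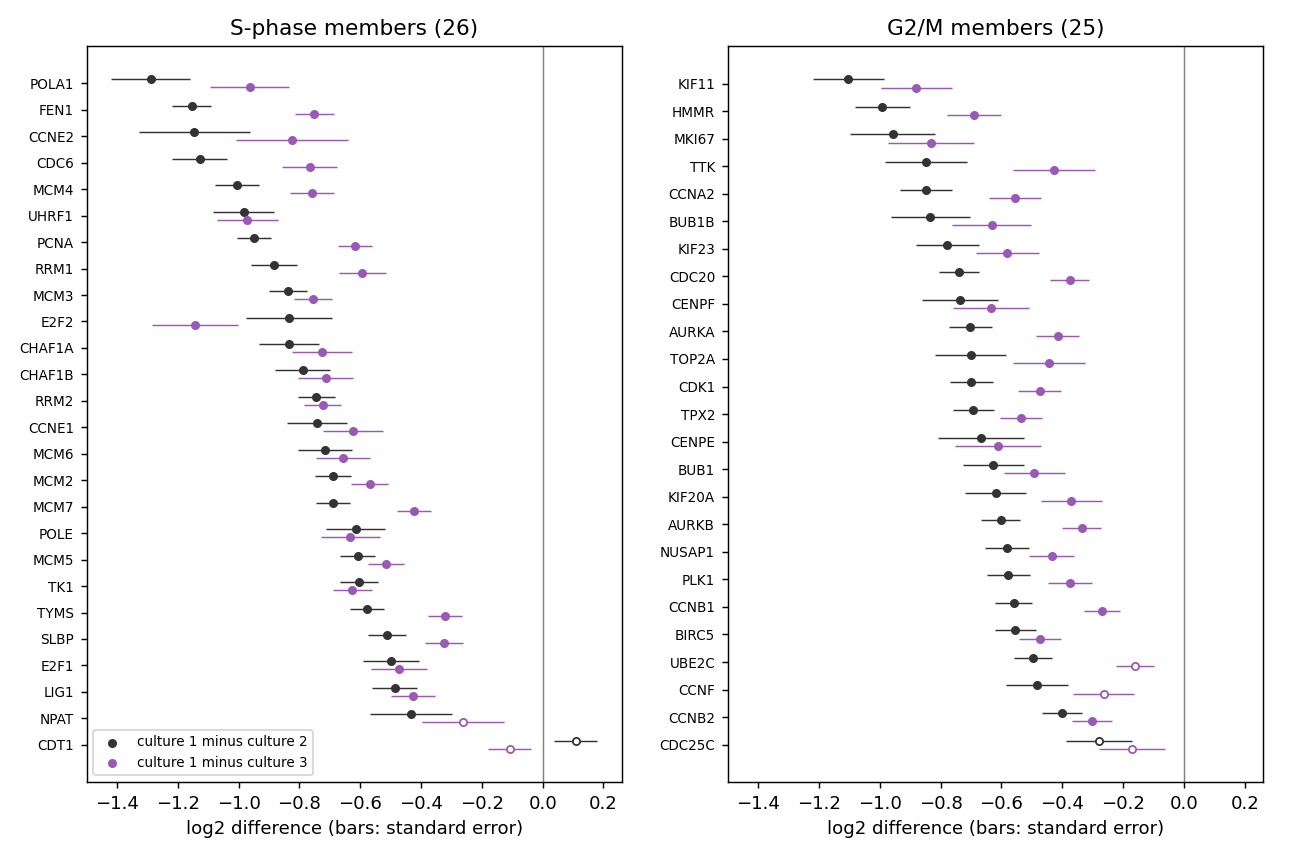
Log2 difference between cultures for each member, culture 1 minus culture 2 (dark) and culture 1 minus culture 3 (purple), with bars of 1 standard error from the limma fit with the treatment as a term (3 cultures, 1 control and 1 lyophilized sample each); filled points have an adjusted p below 0.05. The values lie left of 0 except for CDT1 against culture 2, which is not called.

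Other values moved with culture 1. The B-cell marker sum was higher there, with EBI3, a cytokine subunit abundant in lymphoblastoid lines, at 453 and 415 FPKM in culture 1, 234 and 221 in culture 2 and 209.9 and 189 in culture 3, whereas TCL1A, a kinase coactivator of B cells, was lower there at 89.1 and 90.6 FPKM, against 126 and 135 and 133 and 132 in cultures 2 and 3. Their part in the cell cycle differences was not tested. The all-gene median of culture 1 minus culture 2 was itself -0.11. With the median of every sample set equal it became 0.02, and the medians of the S-phase and G2/M members became -0.61 and -0.56. Across the 51 members, the difference of culture 1 minus culture 2 had a Spearman correlation of 0.34 with transcript GC content, beside 0.32 over 10745 genes, and 50 members were called lower in culture 1 than in culture 2 after a correction for GC content.

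The licensing factors load the helicase onto replication origins in G1, and 7 of the 8 members with this role were lower in culture 1. MCM3, a subunit of the MCM2-7 helicase, stood at 46.9 and 49.6 FPKM in culture 1, 87.1 and 85.5 in culture 2 and 80.3 and 82.7 in culture 3. MCM4, another subunit, stood at 27.1 and 29.9 FPKM in culture 1, 58.7 and 55.9 in culture 2 and 47.6 and 48.8 in culture 3. Both were lowest in culture 1 and highest in culture 2 in each group, and the culture 1 values did not overlap with any other. MCM3 was 1.79-fold and MCM4 2.01-fold higher in culture 2 than in culture 1 (log2 differences of culture 1 minus culture 2 of -0.84 ± 0.06 and -1.005 ± 0.07, SE). MCM7, the most abundant subunit, stood at 80.7 and 80.7 FPKM in culture 1, 131 and 129 in culture 2 and 109.5 and 107 in culture 3, and was 1.61-fold higher in culture 2 than in culture 1. CDC6, the ATPase that recruits the helicase to origins, stood at 9.04 and 10.0 FPKM in culture 1, 21.2 and 20.6 in culture 2 and 15.4 and 17.1 in culture 3. It was 2.18-fold higher in culture 2 and 1.70-fold higher in culture 3 than in culture 1. For MCM2, MCM5 and MCM6, the remaining subunits of the ring, the fold of culture 2 over culture 1 was 1.61, 1.52 and 1.64.

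CDT1, which works with CDC6 in loading the helicase and is destroyed once S phase begins, behaved differently in the uncorrected values. It stood at 35.9 and 27.7 FPKM in culture 1, 32.5 and 26.3 in culture 2 and 39.2 and 29.6 in culture 3. Culture 1 was not the lowest in either group, but all 3 lyophilized samples lay below all 3 controls. Culture 1 minus culture 2 was 0.11 ± 0.07 on the log2 scale (limma adjusted p = 0.239). It became 0.24 ± 0.08 with sample medians set equal (adjusted p = 0.033, higher in culture 1) and -0.10 ± 0.06 with the GC correction (adjusted p = 0.19). Over the alternatives its adjusted p ran from 0.033 to 0.74. Culture 1 minus culture 3 was -0.11 ± 0.07 (limma adjusted p = 0.257). With the GC correction the F-test called all 8 licensing members, CDT1 included. Each of the 8 was then also called lower in culture 1 than in culture 3. The CDT1 transcript had the highest GC content of the 51, at 64.3%.

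All 5 members that work at the replication fork were lower in culture 1. PCNA, the sliding clamp of the polymerases and the S-phase member with the highest mean level, stood at 120.3 and 141 FPKM in culture 1, 243 and 259.6 in culture 2 and 188 and 212 in culture 3. FEN1, the nuclease that trims Okazaki fragments, stood at 29.98 and 32.0 FPKM in culture 1, 66.8 and 71.2 in culture 2 and 50.4 and 54.0 in culture 3. POLA1, the catalytic subunit of the primase-polymerase, stood at 4.18 and 5.95 FPKM in culture 1, 12.3 and 12.3 in culture 2 and 8.51 and 11.3 in culture 3. For these 3 genes the culture 1 samples were the lowest of the 6 and the ranges of the cultures did not touch between cultures 1 and 2. POLA1 had the largest difference of all members, with a 2.44-fold higher level in culture 2 than in culture 1 (log2 difference -1.29 ± 0.13, limma adjusted p = 7.5e-05). FEN1 was 2.23-fold and PCNA 1.93-fold higher in culture 2 than in culture 1. LIG1, the ligase that seals Okazaki fragments, stood at 23.3 and 19.3 FPKM in culture 1, 32.1 and 27.6 in culture 2 and 31.0 and 26.3 in culture 3. POLE, the catalytic subunit of the leading-strand polymerase, stood at 8.29 and 5.82 FPKM in culture 1, 12.4 and 9.22 in culture 2 and 13 and 9.01 in culture 3. Both were lowest in culture 1, and in each pair the lyophilized sample was below its control.

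The 4 enzymes of nucleotide supply were all called lower in culture 1 than in either other culture. RRM1, the large subunit of ribonucleotide reductase, stood at 35.8 and 47.0 FPKM in culture 1, 72.6 and 79.0 in culture 2 and 57.8 and 66.3 in culture 3, and was 1.84-fold higher in culture 2 than in culture 1. TYMS, thymidylate synthase, stood at 137 and 134 FPKM in culture 1, 206 and 198 in culture 2 and 165 and 172 in culture 3, a 1.49-fold difference between the same cultures. RRM2, the small subunit whose level follows S phase, and TK1, thymidine kinase, were 1.67-fold and 1.52-fold higher in culture 2. Between cultures 2 and 3 the log2 differences of RRM2 and TK1 were 0.02 ± 0.06 and -0.02 ± 0.06, within their standard errors.

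All 4 regulators of S-phase entry were lower in culture 1 than in cultures 2 and 3. CCNE2, a cyclin that activates CDK2, was the lowest member and stood at 0.928 and 1.96 FPKM in culture 1, 2.66 and 3.65 in culture 2 and 2.05 and 2.99 in culture 3. It was lowest in culture 1 and higher in the lyophilized sample of every pair, and culture 2 was 2.21-fold above culture 1. E2F1, an activating E2F factor, stood at 13.3 and 11.0 FPKM in culture 1, 18.5 and 15.8 in culture 2 and 19.8 and 14.3 in culture 3. E2F2, a related activator, stood at 2.61 and 1.73 FPKM in culture 1, 4.26 and 3.52 in culture 2 and 5.46 and 4.26 in culture 3. E2F2 was highest in culture 3 in both groups, 2.21-fold above culture 1 (log2 difference of culture 1 minus culture 3 -1.14 ± 0.14, limma adjusted p = 0.000491). CCNE1, the other cyclin E, was 1.67-fold higher in culture 2 than in culture 1.

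Of the 5 members that assemble or copy chromatin in S phase, 4 were called by the F-test. UHRF1, which brings the maintenance DNA methyltransferase to newly copied DNA, stood at 6.80 and 5.64 FPKM in culture 1, 14.4 and 10.6 in culture 2 and 13.3 and 11.3 in culture 3. Its level in cultures 2 and 3 was 1.98-fold and 1.96-fold that of culture 1. NPAT, the activator of replication-dependent histone genes, stood at 4.29 and 6.11 FPKM in culture 1, 6.84 and 7.05 in culture 2 and 5.30 and 7.17 in culture 3. NPAT was lowest in culture 1 but its F-test missed the threshold (limma adjusted p = 0.0615), and the difference of culture 1 minus culture 2 alone was -0.43 ± 0.14 (adjusted p = 0.0259). CHAF1A and CHAF1B, subunits of the chromatin assembly factor, were 1.78-fold and 1.73-fold higher in culture 2 than in culture 1, and SLBP, which binds the stem-loop of histone mRNAs, 1.43-fold.

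The 6 members grouped as cyclins, the mitotic kinase CDK1 and its activator were all lowest in culture 1 in both groups. Of them, 5 were called lower there than in culture 2 and 4 than in culture 3. CDK1, the kinase itself, stood at 36.5 and 52.9 FPKM in culture 1, 63.9 and 79.7 in culture 2 and 52.0 and 71.6 in culture 3. CCNA2, the cyclin of S phase and G2, stood at 23.9 and 29.2 FPKM in culture 1, 47.0 and 48.4 in culture 2 and 34.4 and 43.96 in culture 3. CCNB1, the main mitotic cyclin, stood at 57.8 and 63.2 FPKM in culture 1, 87.1 and 91.2 in culture 2 and 70.2 and 75.5 in culture 3. For each of them culture 1 was lowest and culture 2 highest in both groups, and levels in culture 2 were 1.62-fold, 1.80-fold and 1.47-fold those of culture 1. CCNF, a cyclin that serves as a ubiquitin ligase subunit, stood at 13.9 and 10.0 FPKM in culture 1, 17.4 and 15.8 in culture 2 and 16.2 and 12.5 in culture 3, and was 1.40-fold higher in culture 2. CCNB2 was 1.32-fold higher there. CDC25C, the phosphatase that activates CDK1, ranged from 5.39 to 7.42 FPKM over the 6 samples and was not called (culture 1 minus culture 2 -0.28 ± 0.11, limma adjusted p = 0.0581).

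All 7 mitotic kinases and checkpoint members were lower in culture 1 than in cultures 2 and 3. BUB1, a kinetochore kinase of the spindle checkpoint, stood at 26.6 and 38.0 FPKM in culture 1, 48.5 and 49.9 in culture 2 and 40.1 and 50.1 in culture 3. BUB1B, its checkpoint partner BubR1, stood at 15.0 and 23.2 FPKM in culture 1, 33.9 and 32.8 in culture 2 and 26.4 and 31.9 in culture 3. TTK, the kinase MPS1 that starts checkpoint signalling, stood at 8.03 and 11.4 FPKM in culture 1, 16.6 and 18 in culture 2 and 9.92 and 16.8 in culture 3. The control of culture 1 was the lowest of the 6 samples for all 3, and culture 2 was 1.54-fold, 1.78-fold and 1.80-fold above culture 1. AURKA, the Aurora kinase of centrosomes, stood at 21.8 and 23.7 FPKM in culture 1, 36.2 and 38.0 in culture 2 and 29.8 and 31.0 in culture 3. AURKB and BIRC5 (survivin) act in the chromosomal passenger complex and PLK1 is a kinase of mitotic entry. For AURKA, AURKB, PLK1 and BIRC5 the fold of culture 2 over culture 1 was 1.63, 1.52, 1.49 and 1.47.

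The anaphase-promoting complex works with the ubiquitin-conjugating enzyme UBE2C, the G2/M member with the highest mean level, and with the coactivator CDC20. UBE2C stood at 89.0 and 92.3 FPKM in culture 1, 128 and 128 in culture 2 and 106 and 97.1 in culture 3. CDC20 stood at 50.3 and 51.6 FPKM in culture 1, 83.0 and 87.1 in culture 2 and 67.7 and 64.5 in culture 3. Both were lowest in culture 1 and highest in culture 2 in each group. Culture 2 was 1.41-fold and 1.67-fold above culture 1.

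The 5 kinesins and kinetochore proteins were all lower in culture 1. KIF11, the kinesin that separates spindle poles, had the largest difference of the G2/M members and stood at 8.13 and 11.6 FPKM in culture 1, 20.8 and 21.1 in culture 2 and 15.5 and 20.7 in culture 3. Culture 2 was 2.15-fold above culture 1 (log2 difference -1.10 ± 0.12, limma adjusted p = 9.2e-05). KIF23, a kinesin of cytokinesis, stood at 7.98 and 10.2 FPKM in culture 1, 15.3 and 15.8 in culture 2 and 12.1 and 15.2 in culture 3. CENPE, the kinesin that carries chromosomes along the spindle, stood at 2.80 and 5.07 FPKM in culture 1, 4.68 and 7.83 in culture 2 and 3.80 and 8.88 in culture 3. CENPF, a large kinetochore protein, stood at 6.20 and 10.2 FPKM in culture 1, 11.97 and 14.9 in culture 2 and 9.37 and 16.5 in culture 3. CENPE was the member whose lyophilized samples all lay above all its controls, and CENPF was higher in the lyophilized sample of every pair. Culture 2 was 1.72-fold, 1.59-fold, 1.67-fold and 1.54-fold above culture 1 for KIF23, CENPE, CENPF and KIF20A.

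The 5 chromosome and spindle proteins completed the list, all of them lower in culture 1. MKI67, the surface protein of mitotic chromosomes known as the proliferation marker Ki-67, stood at 16.9 and 26.5 FPKM in culture 1, 42.9 and 39.6 in culture 2 and 34.2 and 41.7 in culture 3. TOP2A, the topoisomerase that untangles sister chromatids, stood at 31.2 and 51.6 FPKM in culture 1, 62.7 and 68.0 in culture 2 and 45.9 and 65.0 in culture 3. HMMR, a spindle protein, stood at 14.8 and 22.1 FPKM in culture 1, 32.7 and 39.8 in culture 2 and 24.0 and 35.6 in culture 3. In these genes the control of culture 1 was the lowest of all samples, and culture 2 was 1.94-fold, 1.63-fold and 1.99-fold above culture 1. NUSAP1, which bundles spindle microtubules, stood at 49.2 and 63.5 FPKM in culture 1, 80.6 and 86.9 in culture 2 and 68.6 and 83.3 in culture 3, a 1.496-fold difference between cultures 2 and 1. TPX2, the activator of AURKA on the spindle, had a fold of 1.62.

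The treatment comparison gave smaller differences. Without the pairing, limma called 0 of the 51 members between the lyophilized and the control samples, against 0.575% of all genes, and 2 members had an unadjusted p below 0.05. These were CDT1 (log2 difference of lyophilized minus control -0.36 ± 0.12, adjusted p = 0.228) and CENPE (0.92 ± 0.25, adjusted p = 0.171). They were also the members whose groups did not overlap, CDT1 with the lyophilized samples lower and CENPE with them higher, while 1075 of all genes tested lay higher and 1401 lower without overlap. The median log2 difference was 0.01 over the S-phase members and 0.23 over the G2/M members, beside 0.04 over all genes. In pairs 1 to 3 the G2/M median was 0.29, 0.07 and 0.27 and the S-phase median 0.05, -0.02 and 0.00, so the G2/M median was positive in every pair. Leaving out 1 sample without the pairing shifted the culture makeup of a group, and the G2/M median was then -0.04 without control 1 and 0.41 without control 2.

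The labels give the pairing, and with the replicate number as a block 21 of the 51 members were called. Higher in the lyophilized samples were 14 members (15.9% of all genes were) and lower 7 (14.9% of all genes). The lyophilized sample was above its control in all 3 pairs for 24 members, against 33.4% of all genes, and below it in all 3 pairs for 12, against 28.8%. Leaving out a pair moved the count of calls to 11 without pair 1, 30 without pair 2 and 8 without pair 3. The shares of all genes called in these fits are not reported here, so the shifts cannot be read as particular to the members.

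In G2/M, 10 of the 25 members were higher with the block (15.9% of all genes were) and 1 was lower (14.9% of all genes). CENPE had the largest difference, at 0.92 ± 0.11 (SE, limma adjusted p = 0.00100). CENPF followed at 0.61 ± 0.10 and HMMR at 0.48 ± 0.07. All 3 were higher in the lyophilized sample of every pair. The other members that rose were TTK (0.46), TOP2A (0.45), CDK1 (0.44), KIF11 (0.31), BUB1 (0.29), NUSAP1 (0.25) and CCNA2 (0.23), and CCNF fell by 0.32. The kinases and regulators PLK1, AURKA, AURKB, UBE2C, CDC20 and CCNB1 were not called, with log2 differences of -0.15, 0.08, -0.13, -0.02, 0.01 and 0.10. MKI67 was not called either, with 0.27 ± 0.12 and a value below 0 in pair 2.

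In S phase, 4 of the 26 members were higher with the block, near the share of all genes (15.9%), and 6 were lower (14.9% of all genes). CCNE2 (0.66 ± 0.15), NPAT (0.33 ± 0.11), RRM1 (0.24 ± 0.06) and PCNA (0.17 ± 0.05) rose. POLE was -0.48 ± 0.08, E2F2 -0.39 ± 0.12, CDT1 -0.36 ± 0.06, E2F1 -0.32 ± 0.08, UHRF1 -0.31 ± 0.08 and LIG1 -0.24 ± 0.06, and these 6 fell. Within the MCM ring no subunit was called, with differences from -0.13 in MCM5 to 0.18 in MCM6.

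**Figure D3:**
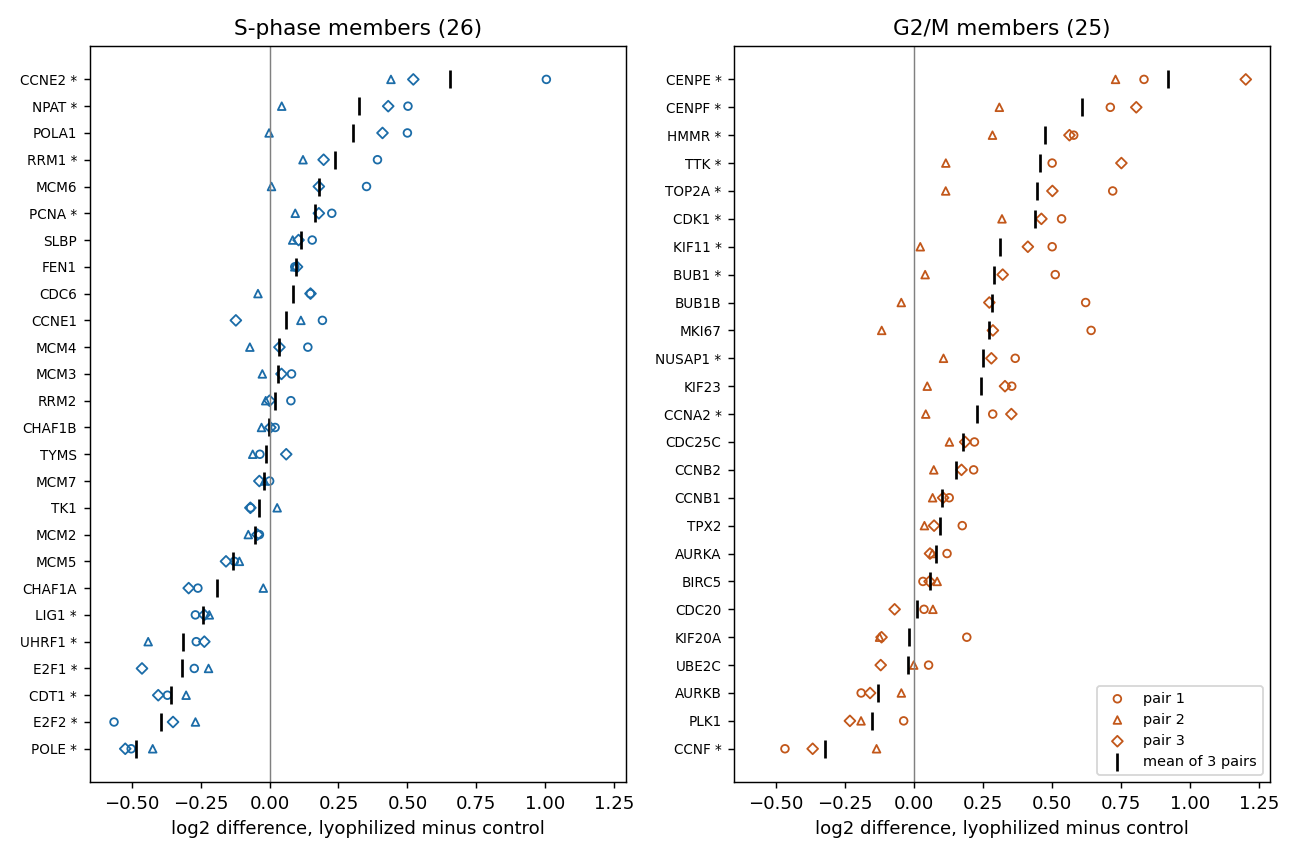
Log2 difference of lyophilized minus control for each member in each of the 3 pairs (open symbols) and its mean (bar), with members sorted by the mean; stars mark an adjusted p below 0.05 in the limma fit with the replicate block. The differences run from -0.48 in POLE to 0.92 in CENPE.

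The direction of the treatment difference followed the GC content of the transcript. Across the 51 members the Spearman correlation of the difference with transcript GC content was -0.90, and it was -0.88, -0.64 and -0.90 within pairs 1 to 3. Over the 10745 genes tested whose transcript is annotated it was -0.75. The points share the same 6 libraries, so these are descriptions. The 12 members with a GC content under 42% had a median difference of 0.44, the 14 from 42% to 48% of 0.16, the 13 from 48% to 56% of 0.00 and the 12 from 56% of -0.17. The medians of all genes in the same ranges were 0.26, 0.10, -0.06 and -0.21. With the block, 10 of the 12 members under 42% were called higher and 0 lower, against 1276 and 7 of the 2988 genes in this range. The members called higher in this range thus made up a larger share than that of all genes. Of the 12 members from 56%, 0 were called higher and 5 lower, as were 43 and 1113 of the 2646 genes in that range, so that the members called lower there made up a share close to that of all genes. The median GC content was 44.3% in the G2/M list and 51.7% in the S-phase list.

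After a curve over GC content was subtracted in each sample, the fit with the block called 11 members, 10 higher (8.97% of all genes) and 1 lower (6.53%), and 6 of them were among the 21 called before. The shared members were CDK1, CENPE, CENPF, NUSAP1 and HMMR, which were higher, and POLE, which was lower. CENPE was then at 0.61 ± 0.08 (limma adjusted p = 0.00316) and CENPF at 0.41 ± 0.07 (adjusted p = 0.00913). CDK1 went from 0.44 to 0.16 ± 0.04 and HMMR from 0.48 to 0.18 ± 0.05, whereas NUSAP1 went from 0.25 to 0.26 ± 0.06 and POLE from -0.48 to -0.32 ± 0.07. CDT1 went from -0.36 to -0.04 and E2F1 from -0.32 to -0.05, and neither was called. MCM7, TK1, FEN1, CDC20 and BIRC5 were called higher in the corrected fit alone, by 0.17 to 0.26. The medians in this fit were 0.05 over the S-phase members, 0.13 over the G2/M members and 0.02 over all genes. The corrected differences still had a Spearman correlation of -0.36 with GC content over the 51 members, beside 0.04 over all genes. Their correlation with transcript length was -0.07 over the members and -0.32 over all genes, where it had been 0.17 and 0.05 before the correction. When length was corrected as well, a choice made after the data were seen, 6 members were called, of which CENPE, CENPF, NUSAP1 and HMMR were among the 21. The share of all genes called in that fit is not reported here, so the 6 cannot be set against it.

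**Figure D4:**
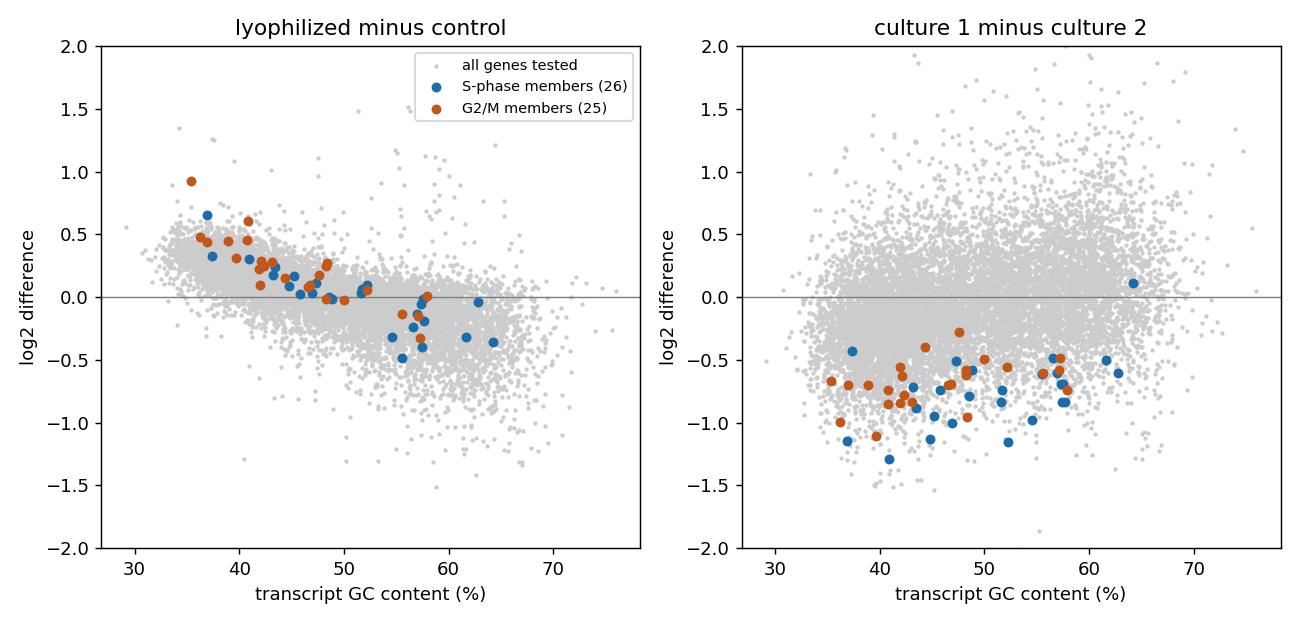
Log2 difference of lyophilized minus control (left) and of culture 1 minus culture 2 (right) against the GC content of the transcript in percent, for all genes with a transcript (grey) and for the S-phase (blue) and G2/M (orange) members; 19 genes lie outside the plotted range in 1 or both panels. On the left the differences of the members fall with GC content, as over all genes, with a Spearman correlation of -0.90 against -0.75. On the right the members lie below 0 apart from CDT1.

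Genes of the same processes outside the set gave counts of the same kind. Of 39 other replication genes, 37 were lower in culture 1 than in culture 2 (29.5% of all genes were), with a median of -0.80. Large spreads between cultures were found in CLSPN, the fork checkpoint adaptor claspin (culture 1 minus culture 2 -1.45), POLE2, a polymerase epsilon subunit (-1.29), and MCM10, a helicase activator (-1.23). Of 50 other mitotic genes, 47 were lower in culture 1, with a median of -0.72, led by ZWINT, a kinetochore protein (-1.31), PBK, a mitotic kinase (-1.19), and the condensin subunits SMC2 (-1.14) and SMC4 (-1.13). The F-test called the same numbers, 37 and 47, against 45.2% of all genes. For the treatment with the block, which called 15.9% of all genes higher and 14.9% lower, 11 of the replication genes were higher and 2 lower, with RFC1 (0.42), ORC3 (0.41), DBF4 (0.35) and POLD1 (-0.34) changing most. Of the mitotic genes, 24 were higher and 8 lower, the latter near the share of all genes, with ASPM (0.59), ESPL1 (-0.57), KIF18A (0.56) and CDC25B (-0.48) changing most. The medians of the 2 lists in this comparison were 0.12 and 0.24.

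The levels of some members rest on shared ground with a neighbour. In the gene annotation of GRCh37, 5 members had over 10% of their exon bases in an exon on the other strand, namely MCM2, TYMS (with ENOSF1), CCNE2 (with INTS8), PLK1 and CCNF, and for BUB1B and NUSAP1 the overlap was on the same strand. It covered 10.2% of the exon bases of BUB1B but 86.8% of those of NUSAP1, so that the level of NUSAP1 and its treatment difference are uncertain. The library kit does not mark the strand, so reads from such bases cannot be told apart.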

How the data were processed

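The 6 libraries, 3 per group, were poly(A)-selected RNA-Seq of GM12873. Per the labels and the study's methods, the authors mapped reads to GRCh37/hg19 with TopHat2 2.0.7 and deposited FPKM values from Cufflinks; the Cufflinks version and gene annotation are not given in the sources used here. Of 24934 records, 1 per symbol was kept (highest mean FPKM, 23284 symbols), 1622 symbols of non-polyadenylated small RNAs were dropped, and genes above a mean of 1 FPKM in at least 1 group were tested.

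Log2(FPKM + 0.1) was fitted with limma 3.58.1 (R 4.3.3, mean-variance trend), with Benjamini-Hochberg adjustment over all 11134 genes and a threshold of 0.05. The treatment fit held the condition alone, as in the study, and a second fit added the replicate number as a block. The culture test held condition and number. The pairing comes from the labels. Deviations of paired samples from their group means correlated at 0.716, 0.603 and 0.476 over 11134 genes. The mean for different numbers was -0.28. Deviations from a group mean cancel within the group, so this negative value is tied to the paired ones and is no separate comparison. P-values measure the spread between these samples, which may be technical. GC content was corrected with a loess curve (span 0.3, degree 2) over GRCh37 transcripts, which all 51 members and 96.5% of tested genes had. Fits were tested on simulated data.

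The members, the other lists (replication, mitosis, G1 control, and B-cell, T-cell, myeloid and erythroid markers) and the sequence words were chosen with earlier results of these data known. Values in every sample are given for up to 10 members per list and comparison with the largest differences past the threshold, or 3 where none passed, and for the 3 highest. Per list outside the set and comparison, up to 4 genes are named, of which 1 is not reported here. Alternatives covered the pseudocount, filters, scaling, variance trend, record choice, block, GC content and samples left out. Counts were not analysed, because the tables hold FPKM only. Python 3.11.15, pandas 2.3.3 and matplotlib 3.10.9 were used.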

Additional observations from a re-analysis of the deposited data

How the results depend on the processing

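Across the pseudocounts, filters, scalings, variance settings and record choices tried, and with each sample left out in turn, the fit without pairing called 0 members for the treatment. With the replicate block from the labels' pairing it called 21, which became 11 with the GC correction, 6 with GC and length corrected (added after seeing the data), and 11, 30 and 8 without replicate 1, 2 or 3; the MCM7 difference turned from -0.02 to 0.18 and 0.19 in the corrected fits, and the cause of the other changes was not tested. Shares of all genes called are not reported here for the fits with length corrected, with a replicate left out or without the treatment term. The member counts of those fits therefore have no background beside them. Left-out samples moved the treatment median from -0.24 to 0.24 (S-phase) and from -0.0448 to 0.41 (G2/M). The groups then held different cultures, and the part of this in the shifts was not tested. With the block, the G2/M median was 0.12, 0.32 and 0.17 without replicate 1, 2 or 3. The GC correction made the S-phase median 0.0522 with and without the block. The culture F-test called 38 members without the filter on low values. With samples left out it called 48 to 50, the contrast of cultures 1 and 2 called 48 to 50, and that of cultures 1 and 3 called 37 to 49. Without the treatment term the F-test called 27, the contrast of cultures 1 and 2 called 34, that of cultures 1 and 3 called 11 and that of cultures 2 and 3 called 0. Cultures 2 and 3 gave 0 calls without the filter and without the trend, 7 with quantile normalization, 18 with the GC correction and 1 to 25 with samples left out. The S-phase median of culture 1 minus culture 2 was -0.70 with a pseudocount of 1, -0.61 with sample medians equal, -0.66 with quantile normalization, -0.81 with the GC correction and -0.78 to -0.69 with samples left out. With sample medians equal, the medians against culture 3 were -0.49 (S-phase) and -0.31 (G2/M), and the G2/M median of culture 1 minus culture 2 was -0.56. With samples left out, the G2/M median against culture 3 ran from -0.53 to -0.38 and the S-phase median against culture 3 from -0.69 to -0.57. The S-phase median of culture 2 minus culture 3 was 0.12, 0.09028 and 0.13 with equal medians, quantile normalization and the GC correction, and 0.0851 to 0.13 with samples left out. The direction of the culture medians held in all of these. FPKM tables carry no depth, so precision rests on the 6 samples alone.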

Other observations

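The G1 control genes did not move one way between cultures. Of the 24 genes on this list 23 were tested, the F-test called 16 of them (45.2% of all genes), and culture 1 was called higher than culture 2 in 5 (16.3% of all genes) and lower in 11 (29.5% of all genes). The 5 higher genes were inhibitors of cyclin-dependent kinases and D-type cyclins, but other genes of these kinds went the other way, and the names here were taken after their values were seen. The inhibitors CDKN2A (-0.40 ± 0.11) and CDKN2C (-0.40 ± 0.08) were called lower in culture 1 than in culture 2, and the cyclin CCND3 was called lower than in culture 3 (-0.27 ± 0.07) but not than in culture 2 (-0.15 ± 0.07). CDKN1A, the inhibitor p21, stood at 268 and 248.6 FPKM in culture 1, 194 and 192 in culture 2 and 177 and 166 in culture 3, with the control given before its lyophilized partner. CDKN1B, the inhibitor p27, stood at 24.4 and 28.3 FPKM in culture 1, 16.9 and 16.5 in culture 2 and 19.3 and 21.6 in culture 3. Both were highest in culture 1 in each group (culture 1 minus culture 2 0.42 ± 0.05 and 0.65 ± 0.09 on the log2 scale, SE). CDKN2D, an inhibitor of CDK4 and CDK6, stood at 9.39 and 9.55 FPKM in culture 1, 6.42 and 6.54 in culture 2 and 8.81 and 8.74 in culture 3, so that cultures 1 and 3 lay together above culture 2. CCND1, a cyclin that partners CDK4 and CDK6, stood at 4.89 and 4.71 FPKM in culture 1, 2.68 and 2.64 in culture 2 and 2.27 and 2.61 in culture 3, and CCND2, a related cyclin, at 57.0 and 64.6 FPKM in culture 1, 42.5 and 43.1 in culture 2 and 39.4 and 42.5 in culture 3. For these cyclins culture 1 lay above the other two in both groups, by 0.83 ± 0.14 and 0.50 ± 0.07 against culture 2.

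Among the G1 control genes called lower in culture 1, those with the largest differences were E2F8, a repressor of the E2F family (-1.18 ± 0.12 against culture 2), RBL1, the pocket protein p107 (-1.17 ± 0.13), and CDC25A, the phosphatase that activates CDK2 (-0.88 ± 0.10). RB1, which restrains E2F factors, stood at 7.62 and 11.0 FPKM in culture 1, 12 and 12.1 in culture 2 and 10.2 and 13.7 in culture 3, and was lower in culture 1 in both groups. For the treatment with the replicate block, which called 15.9% of all genes higher and 14.9% lower, 3 genes of this list were called: CDK6 (0.32 ± 0.10) and RB1 (0.31 ± 0.10) were higher in the lyophilized samples and CCND3 (-0.20 ± 0.06) was lower. The transcripts of CDK6 and RB1 have a GC content of 39.7% and 37.1%, and that of CCND3 56.2%. The median treatment difference of the list was 0.04, equal to that of all genes tested.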
